A study of Homo sapiens with 12 samples.

Results

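The genes that build ribosomes were followed here through MEK inhibition in a pair of pancreatic cancer cell lines. They are 40 protein-coding genes, 8 of RNA polymerase I (Pol I) transcription, 7 of the small nucleolar ribonucleoproteins (snoRNPs), 11 of small-subunit assembly, 12 of large-subunit assembly and the abundant nucleolar proteins NCL and NPM1. They were found by Ensembl identifier from a list of gene symbols, POLR1G under its older name CD3EAP, and are 40 of the 58735 genes in the deposited table. All 40 passed the filter on low counts, which left 16133 genes. The series measured messenger RNA by poly(A)-selected sequencing. KP4 and MiaPaca2 are established lines labelled as human pancreatic ductal adenocarcinoma cells, and both were grown in the same medium with serum. The 4 groups, of 3 libraries each, were KP4 trametinib, KP4 DMSO, MiaPaca2 trametinib and MiaPaca2 DMSO. Trametinib, which blocks the kinases MEK1 and MEK2 outside their ATP site, was given at 100 nM for 48 h, and DMSO is its solvent, given for the same 48 h. The labels do not say whether the 3 libraries of a group were grown as separate cultures, and p-values therefore reflect a spread among libraries that may be technical.

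Ribosome production begins in the nucleolus, where Pol I copies the repeated ribosomal DNA into a long precursor. The snoRNPs modify and help to fold that precursor, and separate sets of assembly factors then cut it and load proteins onto it to give the small and the large subunit. Growth signals reach this pathway through MEK and ERK and through the transcription factor MYC, which binds the DNA motif CACGTG, called the E-box, at many of these genes.

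Total counts ran from 20293688 to 28018129 per library. Levels are TMM-scaled CPM, read counts brought to a common library size, and CPM are shares of a library, not amounts per cell; in bulk RNA, fewer cells with a transcript and less of it per cell cannot be told apart. A gene was called with an edgeR quasi-likelihood p adjusted over all 16133 genes under 0.05. The libraries of MiaPaca2 DMSO differed from each other more than those of other groups, by a chi-square over genes that, divided by its degrees of freedom, came to 14.49 for replicates 1 and 2, 13.29 for 2 and 3 and 7.698 for 1 and 3, against 2.015 to 2.888 in the other 3 groups. Every library was therefore left out in turn. Target genes of ERK were lower with the drug in both lines: SPRY4, a feedback inhibitor induced by ERK, averaged 2.12 ± 0.132 CPM in KP4 trametinib and 206 ± 3.44 CPM in KP4 DMSO, and 3.47 ± 0.515 CPM in MiaPaca2 trametinib and 229 ± 13.8 CPM in MiaPaca2 DMSO (SD, n = 3 each). The phosphatase gene DUSP6, induced by ERK as well, averaged 0.863 ± 0.183 CPM in KP4 trametinib and 86.0 ± 2.75 CPM in KP4 DMSO, and 0.333 ± 0.164 CPM in MiaPaca2 trametinib and 18.3 ± 7.21 CPM in MiaPaca2 DMSO. Of the marker lists for this and other cell types, all 5 acinar genes were at 0 in both lines. Some markers of the other lists moved with the drug, and their part in the results on the 40 genes was not tested. The summed CPM of 5 ductal epithelial markers was 193 to 202 in KP4 trametinib and 235 to 247 in KP4 DMSO, and 671 to 687 in MiaPaca2 trametinib and 1631 to 2012 in MiaPaca2 DMSO. KRT18 fell and KRT8 and KRT19 rose in KP4, whereas all 3 of these keratins fell in MiaPaca2, where EPCAM rose at a mean under 1 CPM. For 3 mesenchymal markers the sums were 3140 to 3150 CPM in KP4 trametinib and 3686 to 3712 CPM in KP4 DMSO, and 4992 to 5092 CPM in MiaPaca2 trametinib and 5859 to 6526 CPM in MiaPaca2 DMSO; VIM and ZEB1 fell in both lines and FN1 rose in MiaPaca2. For 4 fibroblast markers, of which COL1A1 and COL3A1 rose in both lines, they were 14.1 to 15.1 CPM in KP4 trametinib and 8.08 to 9.44 CPM in KP4 DMSO, and 34.9 to 38.9 CPM in MiaPaca2 trametinib and 8.77 to 11.5 CPM in MiaPaca2 DMSO. For 4 immune, 3 endothelial and 4 neuroendocrine markers the highest sums in any library were 5.67, 2.90 and 23.8 CPM; PTPRC and SYP fell in KP4, and in MiaPaca2 CDH5 fell and VWF rose.

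A short motif lay in the promoter windows of 17 of these genes. RefSeq start sites (GRCh38.p14) gave windows of 300 bases, 250 before to 50 after the start, for 34 of the 40 genes, and no window was matched for RRS1, BOP1, RRP12, RRP1B, NOLC1 and NOP58. The E-box CACGTG, which reads the same on both strands, lay in a window of 17 of these 34 genes (50%). It lay in a window of 1422 of the 11591 tested genes that had one (12.3%). Some genes had more than 1 window. Counted by window, the E-box lay in 17 of the 44 windows of these 34 genes. It lay in 9.11% of the 16814 windows of tested genes and in 7.26% of all 35116 windows. All 17 matches began within 100 bases of the start, 10 of them at or after it. The promoters of FBL and POLR1G are shown first because these genes had the lowest fold change among the snoRNP genes of both lines and among the Pol I genes of KP4. Each runs from 250 bases before to 25 bases after the start, 5′ to 3′ on the gene's own strand, with the E-box in capitals.
FBL (chr19:39846355-39846629, minus strand): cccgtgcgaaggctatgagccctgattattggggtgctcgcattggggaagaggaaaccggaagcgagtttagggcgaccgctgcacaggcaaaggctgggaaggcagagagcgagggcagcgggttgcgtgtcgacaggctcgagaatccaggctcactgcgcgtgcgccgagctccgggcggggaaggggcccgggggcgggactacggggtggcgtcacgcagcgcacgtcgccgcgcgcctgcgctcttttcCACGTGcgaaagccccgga
POLR1G (chr19:45406394-45406668, plus strand): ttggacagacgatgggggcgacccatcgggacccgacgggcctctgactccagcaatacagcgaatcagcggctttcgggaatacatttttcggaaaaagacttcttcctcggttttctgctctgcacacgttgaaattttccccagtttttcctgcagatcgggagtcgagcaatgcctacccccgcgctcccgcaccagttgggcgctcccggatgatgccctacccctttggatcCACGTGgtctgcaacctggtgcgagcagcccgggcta
The E-box of FBL began 6 bases after the start and that of POLR1G 12 bases before it. Shorter windows, with 10 bases on each side of the match, are shown for the 5 other genes of the 17 that fell furthest in MiaPaca2 (LYAR, MRTO4, MYBBP1A, UTP4 and WDR43) and for the 2 that fell least there (PES1 and BYSL).
LYAR (chr4:4290070-4290095, minus strand): gcggcgagtcCACGTGctccccgcgg
MRTO4 (chr1:19251809-19251834, plus strand): tcttccgccgCACGTGgattcagcgc
MYBBP1A (chr17:4555342-4555367, minus strand): ggccggagcaCACGTGtttcgtgttt
UTP4 (chr16:69132623-69132648, plus strand): agcgcgcgcgCACGTGgggccggggc
WDR43 (chr2:28894660-28894685, plus strand): cacggacgaaCACGTGgctgcagcgg
PES1 (chr22:30591882-30591907, minus strand): cttggcagggCACGTGcgggaggaag
BYSL (chr6:41921517-41921542, plus strand): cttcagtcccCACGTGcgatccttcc
The same 6 letters therefore stood at genes with large and with small changes. The 17 genes with an E-box had a median log2 fold change of −0.36 in KP4, where 16 were lower, and of −0.65 in MiaPaca2, where 17 were lower. The 17 genes with a window but no E-box had medians of −0.22, with 12 lower, and −0.55, with 16 lower. Of all tested genes 24.1% were called lower in KP4 and 29.7% in MiaPaca2. The genes without a window are in neither set. They include RRS1 and BOP1, the genes of the 40 with the lowest fold change in KP4 (−0.70) and in MiaPaca2 (−1.24). These are descriptions of 34 genes, and a match is not a measured binding site. Besides FBL, an ETS core (CCGGAA, or TTCCGG on the other strand) lay in a window of 15 further genes, which made 16 of 34 (47.1%), against 33.5% of tested genes. By window it lay in 19 of 44, against 25.8% of the windows of tested genes and 17.2% of all windows. The motif of NRF1 lay at MYBBP1A and DKC1 (5.88%), against 2.61% of tested genes. By window it lay in 2 of 44, against 1.9% of the windows of tested genes and 1.24% of all windows. No E-box match overlapped a match to either of the other motifs.

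**Figure D1:**
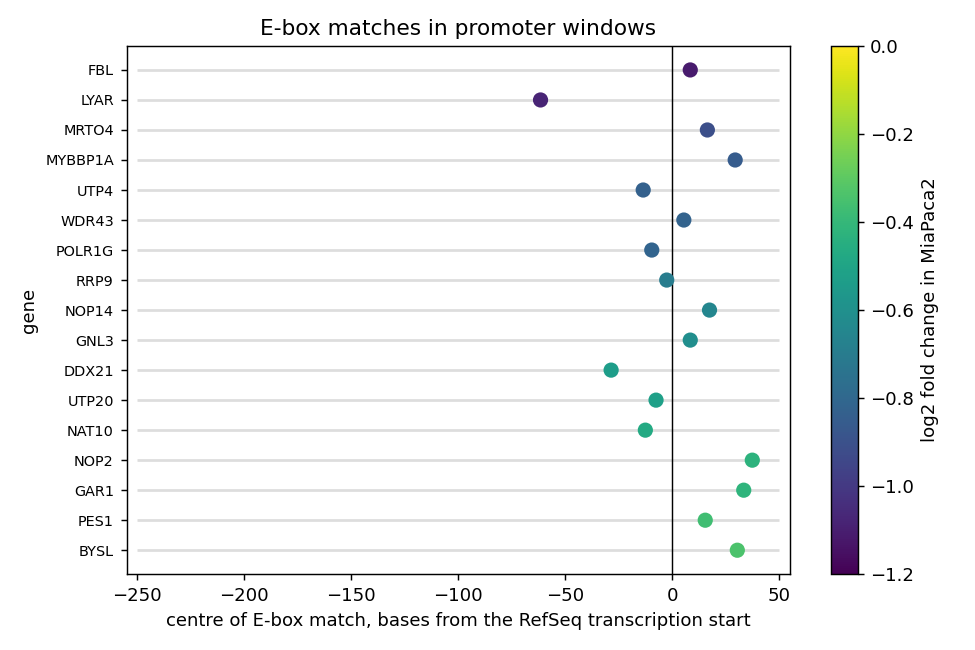
Position of the E-box match in the RefSeq promoter windows of 17 ribosome biogenesis genes. The x axis gives bases from the transcription start to the centre of the match, each row is a gene, ordered by its change in MiaPaca2, and the colour is its log2 fold change in MiaPaca2, trametinib minus DMSO. All 17 matches began within 100 bases of the start, LYAR farthest from it at 64 bases before.

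Ribosome biogenesis transcripts were lower under trametinib in both lines. In KP4, 34 of the 40 genes fell, 0 rose and 6 were not called, with a median log2 fold change of −0.31; 24.1% of all tested genes were called lower and 23.9% higher, and their median was 0. In MiaPaca2, 39 fell, 0 rose and 1 was not called, with a median of −0.61; 29.7% of tested genes were called lower and 34.4% higher, with a median of 0.05. At an unadjusted p under 0.05 edgeR gave 0 genes higher in either line, and so did DESeq2 and limma-voom after adjustment. Every trametinib library lay below every DMSO library for 37 of the genes in KP4, the exceptions being POLR1A, RRN3 and PPAN, and for 40 in MiaPaca2. By that rule 30.5% of all tested genes were lower in KP4 and 29.8% in MiaPaca2. The summed level of the 40 genes was 7390.8 ± 61.8 CPM in KP4 trametinib and 8914.8 ± 42.1 CPM in KP4 DMSO, a change of −17.09%. It was 6478.7 ± 85.2 CPM in MiaPaca2 trametinib and 10084.5 ± 187.0 CPM in MiaPaca2 DMSO (SD, n = 3 each), a change of −35.76%. NCL and NPM1 together held 2757.8 CPM of the KP4 DMSO sum and 3365.0 CPM of the MiaPaca2 DMSO sum. Their summed level changed by −11.08% in KP4 and −35.38% in MiaPaca2. As a share of all counts, the sum of the 40 genes took 0.744% to 0.754% of each KP4 trametinib library and 0.893% to 0.899% of each KP4 DMSO library. The share was 0.638% to 0.655% in MiaPaca2 trametinib and 0.974% to 1.006% in MiaPaca2 DMSO.

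**Figure D2:**
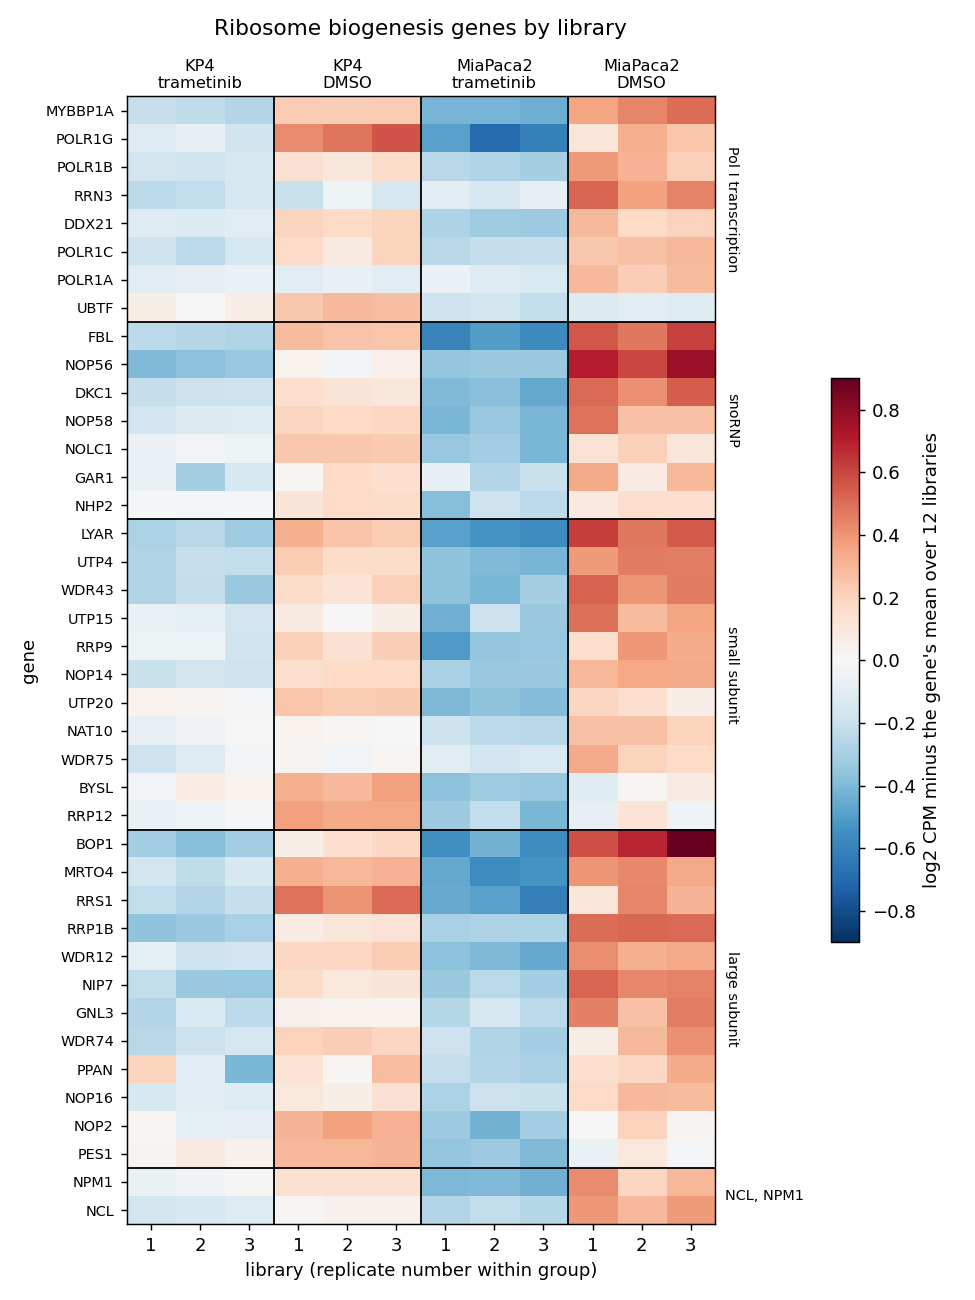
Level of each of the 40 genes in each of the 12 libraries, as log2 CPM minus the gene's own mean over the 12 libraries (colour). Rows are genes grouped by role and columns are libraries, and by group mean CPM 36 genes were lowest in MiaPaca2 trametinib and 4 (RRN3, NOP56, RRP1B and NIP7) in KP4 trametinib, and 30 were highest in MiaPaca2 DMSO and 10 (POLR1G, UBTF, NHP2, NOLC1, UTP20, RRP12, BYSL, PES1, NOP2 and RRS1) in KP4 DMSO.

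Transcripts of the growth regulator MYC, the E-box factor named above, moved with these sums. MYC averaged 211 ± 1.22 CPM in KP4 trametinib and 309 ± 9.52 CPM in KP4 DMSO, a log2 fold change of −0.55 ± 0.05 (edgeR adjusted p = 2.01e-10). In MiaPaca2 it averaged 186 ± 5.77 CPM under trametinib and 385 ± 31.1 CPM in DMSO, a change of −1.05 ± 0.05 (edgeR adjusted p = 2.22e-16). The proliferation marker MKI67 changed by −0.39 ± 0.03 (edgeR adjusted p = 6.5e-10) in KP4 and −0.57 ± 0.04 (edgeR adjusted p = 1.51e-13) in MiaPaca2. The part of MYC or of proliferation in the changes of the 40 genes was not tested.

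Per kilobase of exon, the 40 genes spanned a wide range of abundance. Averaged over the 4 groups, the major nucleolar proteins NCL and NPM1 stood at 292.6 and 172.4 CPM per kilobase, followed by the snoRNP chaperone NOLC1 at 127.4, FBL at 95 and the helicase DDX21 at 93.3. The least abundant were POLR1C at 6.44, NOP2 at 3.40 and PPAN at 2.73 CPM per kilobase. For NOP2 and PPAN these levels may rest on part of the gene: 54.4% of NOP2's exon bases and 56.0% of PPAN's lie under same-strand read-through or overlapping genes (AC006064.6 and PPAN-P2RY11) that held 0 counts, and no source used here says how shared reads were counted. P2RY11, on the same strand, covers 3.8% of PPAN's exon bases and held 2118 counts over all 12 libraries, against 2123 for PPAN.

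Of the 8 genes of Pol I transcription, 6 fell and 0 rose in KP4 (median −0.30), and 7 fell and 0 rose in MiaPaca2 (median −0.54). Their summed level changed by −18.59% in KP4 and −29.90% in MiaPaca2. The subunit genes of the polymerase did not move alike. POLR1G, a Pol I subunit (ENSG00000117877, chromosome 19, 45406209 to 45410766, GRCh38, as for all gene positions here), had 68.3, 70.4 and 65.4 CPM in KP4 trametinib, against 99.5, 103 and 109 CPM in KP4 DMSO. In MiaPaca2 it had 52.8, 45.9 and 48.4 CPM under trametinib and 79.6, 92.3 and 88.0 CPM in DMSO. The groups did not overlap in either line, and the log2 fold change was −0.61 ± 0.06 (edgeR adjusted p = 2.01e-09) in KP4 and −0.82 ± 0.06 (edgeR adjusted p = 1.39e-11) in MiaPaca2. Of POLR1G's exon bases 43.5% overlap the antisense gene ERCC1, and without knowledge of strand use the reads of these cannot be told apart. POLR1A, the largest catalytic subunit (ENSG00000068654, chromosome 2, 86020216 to 86106155), had 172, 175 and 177 CPM in KP4 trametinib, against 171, 176 and 173 CPM in KP4 DMSO. In MiaPaca2 its levels were 178, 170.2 and 167 CPM under trametinib and 226, 214 and 224 CPM in DMSO. KP4 libraries of both treatments overlapped, with a log2 fold change of 0.01 ± 0.04 (edgeR adjusted p = 0.818) that was not called, while MiaPaca2 libraries did not overlap, at −0.37 ± 0.04 (edgeR adjusted p = 1.08e-08). The second-largest subunit gene POLR1B changed by −0.30 and −0.58, and POLR1C, shared by Pol I and Pol III, by −0.35 and −0.49, in KP4 and MiaPaca2, and all of these 4 values were called. POLR1C shares 6.3% of its exon bases with the antisense gene XPO5 and 2.3% with the antisense gene YIPF3. These held 53007 and 19227 counts over all 12 libraries, against 10733 for POLR1C.

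By the edgeR estimates, the initiation factors RRN3 and UBTF differed in which line had the larger change. RRN3, which brings the polymerase to the ribosomal promoter (ENSG00000085721, chromosome 16, 15060022 to 15094317), had 52.0, 53.0 and 55.4 CPM in KP4 trametinib, against 53.8, 60.1 and 55.5 CPM in KP4 DMSO. In MiaPaca2 it had 57.8, 55.5 and 58.6 CPM under trametinib and 88.8, 79.1 and 83.9 CPM in DMSO. Its change was −0.08 ± 0.06 (edgeR adjusted p = 0.274) in KP4, with overlapping libraries, and −0.55 ± 0.06 (edgeR adjusted p = 3.93e-09) in MiaPaca2, without overlap. The 2 named pseudogenes of RRN3 held counts equal to 7.446% of RRN3's own, so reads may be split among them. UBTF, the factor that coats active ribosomal DNA (ENSG00000108312, chromosome 17, 44205033 to 44221626), had its larger change in KP4. It had 331, 318 and 331 CPM in KP4 trametinib, against 377, 389 and 386 CPM in KP4 DMSO. In MiaPaca2 it had 279.7, 284 and 273 CPM under trametinib and 292, 297 and 294 CPM in DMSO. UBTF fell in KP4 by 0.23 ± 0.03 (edgeR adjusted p = 4.1e-06) on the log2 scale, whereas its −0.08 ± 0.04 (edgeR adjusted p = 0.0588) in MiaPaca2 was not called. That MiaPaca2 value was called with DESeq2 (adjusted p = 0.00486), limma-voom (0.0461) and RLE scaling (0.0109), and without MiaPaca2 DMSO replicate 1 (0.0277). UBTF's difference in response between the lines was not called with RLE scaling (adjusted p = 0.102), with no filter on low counts (0.0743) or in DESeq2 (0.0798). That call was also lost when some single libraries were left out. MYBBP1A, a nucleolar regulator of Pol I transcription and precursor processing, fell by 0.46 in KP4 and 0.86 in MiaPaca2, and DDX21, a helicase of the nucleolus, by 0.31 and 0.54.

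**Figure D3:**
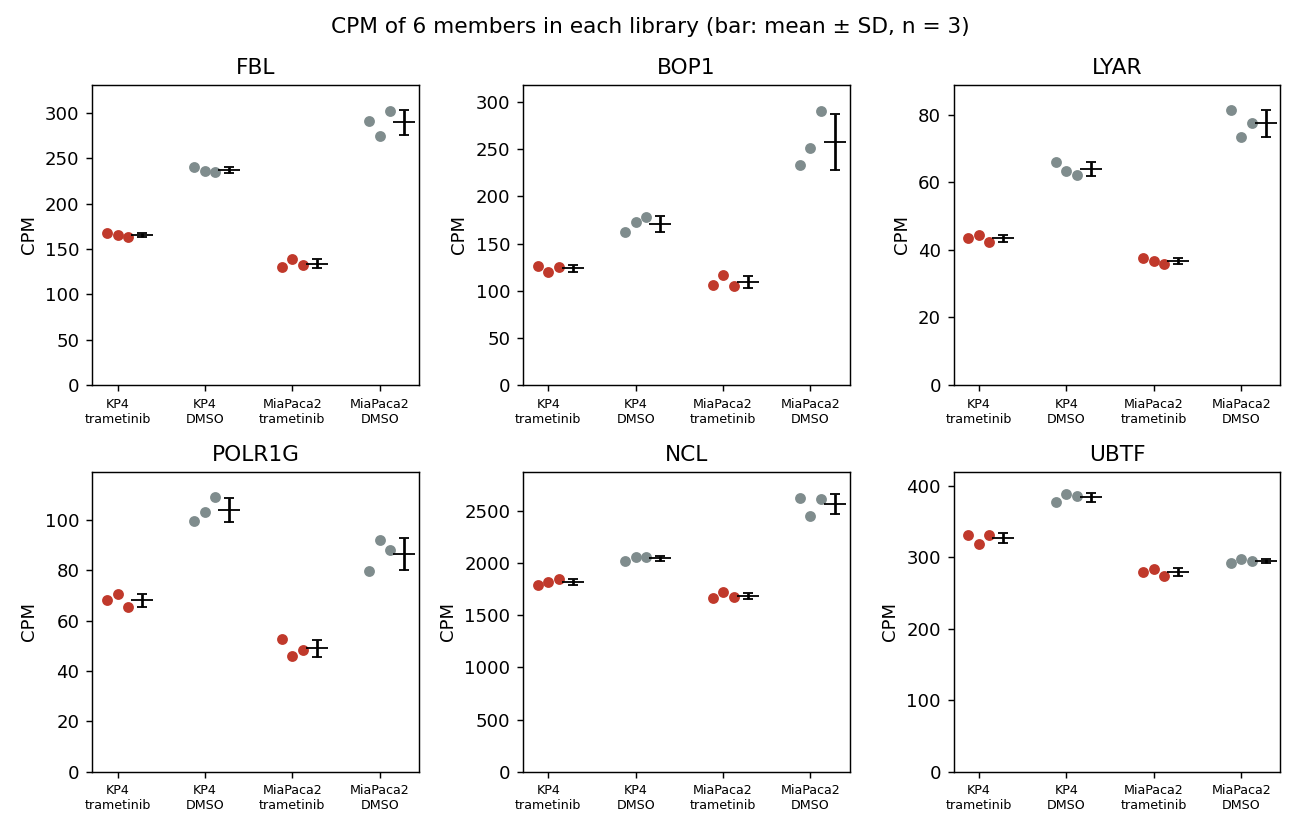
CPM of 6 genes in each library. Points are libraries, in the order KP4 trametinib, KP4 DMSO, MiaPaca2 trametinib and MiaPaca2 DMSO along the x axis, and bars give the mean ± SD of 3 libraries. FBL, BOP1, LYAR and NCL were lowest in MiaPaca2 trametinib and highest in MiaPaca2 DMSO, POLR1G was highest in KP4 DMSO, and UBTF lay between 273 and 297 CPM in all 6 MiaPaca2 libraries.

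All 7 snoRNP genes fell in both lines, with medians of −0.32 in KP4 and −0.73 in MiaPaca2. Their summed level changed by −20.14% in KP4 and by −40.49% in MiaPaca2. The box C/D particles place 2′-O-methyl groups on the ribosomal precursor, and FBL is their methyltransferase (ENSG00000105202, chromosome 19, 39834458 to 39846414). FBL had 168, 165 and 163 CPM in KP4 trametinib, against 240.3, 236 and 235 CPM in KP4 DMSO. In MiaPaca2 it had 129.9, 139 and 132 CPM under trametinib and 291, 275 and 302 CPM in DMSO. The change was −0.52 ± 0.04 (edgeR adjusted p = 8.54e-11) in KP4 and −1.11 ± 0.04 (edgeR adjusted p = 7.29e-18) in MiaPaca2, with no overlap of libraries in either. NOP56, a scaffold of the same particle (ENSG00000101361, chromosome 20, 2652145 to 2658393), had 136, 138 and 141 CPM in KP4 trametinib, against 183, 176 and 185 CPM in KP4 DMSO. MiaPaca2 libraries held 140.5, 142 and 142 CPM of NOP56 under trametinib and 292, 272 and 306 CPM in DMSO. Under trametinib both lines thus stood at nearly one level, and the changes were −0.39 ± 0.04 (edgeR adjusted p = 3.82e-08) in KP4 and −1.03 ± 0.04 (edgeR adjusted p = 6.02e-17) in MiaPaca2. NOP58, its partner, changed by −0.32 in KP4 and −0.73 in MiaPaca2.

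The box H/ACA particles convert uridines to pseudouridine, and DKC1 is their enzyme (ENSG00000130826, chromosome X, 154762742 to 154777689). DKC1 had 216, 219.8 and 221 CPM in KP4 trametinib, against 279, 272 and 270.4 CPM in KP4 DMSO. Its MiaPaca2 levels were 191, 194 and 183 CPM under trametinib and 358, 334 and 366 CPM in DMSO. Libraries of the treatments did not overlap, and DKC1 changed by −0.32 ± 0.04 (edgeR adjusted p = 2.08e-07) in KP4 and −0.90 ± 0.04 (edgeR adjusted p = 2.36e-16) in MiaPaca2. Of the other core proteins, NHP2 changed by −0.16 in KP4 and −0.40 in MiaPaca2, and GAR1 by −0.29 and −0.42. GAR1's call in KP4 was lost without KP4 trametinib replicate 2 (edgeR adjusted p = 0.058). NHP2 shares 27.4% of its exon bases with the antisense gene RMND5B. NOLC1, which ferries and stabilises snoRNPs, changed by −0.28 and −0.51.

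Of the 11 small-subunit genes, 8 fell and 0 rose in KP4 (median −0.30), and all 11 fell in MiaPaca2 (median −0.65). The sum over these genes changed by −18.09% in KP4 and −34.07% in MiaPaca2. LYAR, a nucleolar zinc-finger protein of precursor processing (ENSG00000145220, chromosome 4, 4267701 to 4290169), changed most among them. It had 43.5, 44.5 and 42.5 CPM in KP4 trametinib, against 66.2, 63.4 and 62.2 CPM in KP4 DMSO. In MiaPaca2 LYAR had 37.7, 36.6 and 35.7 CPM under trametinib and 81.5, 73.5 and 77.6 CPM in DMSO. The log2 fold changes were −0.56 ± 0.06 (edgeR adjusted p = 4.59e-09) in KP4 and −1.08 ± 0.06 (edgeR adjusted p = 7.29e-15) in MiaPaca2, with no overlap of libraries. The early-acting complex that couples transcription to processing is covered by UTP4, UTP15, WDR43 and WDR75. UTP4 and WDR43 fell in both lines, by 0.42 and 0.44 in KP4 and by 0.83 and 0.82 in MiaPaca2. UTP15 and WDR75 were not called in KP4, at −0.15 ± 0.06 and −0.11 ± 0.05, and fell by 0.70 and 0.37 in MiaPaca2. Both KP4 values were called when only the 6 KP4 libraries were fitted (adjusted p = 0.00472 for UTP15 and 0.00524 for WDR75), UTP15 also with no filter on low counts (0.0430) and WDR75 without KP4 trametinib replicate 3 (0.0268).

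NAT10, the enzyme that acetylates cytidines of the small-subunit RNA (ENSG00000135372, chromosome 11, 34105602 to 34147670), was near its control level in KP4. It had 177, 182 and 184 CPM in KP4 trametinib, against 189.5, 187 and 185 CPM in KP4 DMSO. In MiaPaca2 it had 162, 157 and 156 CPM under trametinib and 222, 223 and 213 CPM in DMSO. Its change of −0.05 ± 0.04 (edgeR adjusted p = 0.323) in KP4 was not called, though the libraries did not overlap, and it fell in MiaPaca2, at −0.47 ± 0.04 (edgeR adjusted p = 7.26e-11). RRP12, a factor of late small-subunit maturation and export (ENSG00000052749, chromosome 10, 97356358 to 97426076), had 138, 138 and 142 CPM in KP4 trametinib, against 185, 181 and 181 CPM in KP4 DMSO. MiaPaca2 libraries had 114, 122 and 108 CPM of RRP12 under trametinib and 136, 155 and 139 CPM in DMSO. RRP12 changed by −0.39 ± 0.05 (edgeR adjusted p = 3.17e-07) in KP4 and −0.33 ± 0.05 (edgeR adjusted p = 4.43e-06) in MiaPaca2. BYSL, another late assembly factor (ENSG00000112578, chromosome 6, 41921188 to 41933046), had 56.2, 59.7 and 58.3 CPM in KP4 trametinib, against 71.2, 69.9 and 73.7 CPM in KP4 DMSO. In MiaPaca2 BYSL had 44.2, 45.8 and 45.1 CPM under trametinib and 53.1, 57.8 and 60.1 CPM in DMSO. Its changes were −0.30 ± 0.05 (edgeR adjusted p = 3.51e-05) in KP4 and −0.34 ± 0.06 (edgeR adjusted p = 1.31e-05) in MiaPaca2. The remaining small-subunit genes fell in both lines: RRP9, a U3 snoRNP protein, by 0.28 in KP4 and 0.70 in MiaPaca2, NOP14 by 0.36 and 0.65, and UTP20 by 0.22 and 0.52. NOP14 shares 17.1% of its exon bases with the antisense NOP14-AS1.

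Of the 12 large-subunit genes, 11 fell and 0 rose in KP4 (median −0.39), and all 12 fell in MiaPaca2 (median −0.69). Their summed level changed by −22.55% in KP4 and −39.32% in MiaPaca2. BOP1, PES1 and WDR12 form one complex needed for processing of the large-subunit RNA, and its members differed. BOP1 (ENSG00000261236, chromosome 8, 144262102 to 144291370) had 126, 119.6 and 126 CPM in KP4 trametinib, against 162, 173 and 178 CPM in KP4 DMSO. In MiaPaca2 it had 106, 116 and 105 CPM under trametinib and 233, 251 and 291 CPM in DMSO. Its change was −0.47 ± 0.07 (edgeR adjusted p = 9.74e-06) in KP4 and −1.24 ± 0.07 (edgeR adjusted p = 6.98e-12) in MiaPaca2, the lowest value of the 40 genes there. PES1 (ENSG00000100029, chromosome 22, 30576625 to 30607083) had 276, 288 and 279.9 CPM in KP4 trametinib, against 334, 335 and 337 CPM in KP4 DMSO. For PES1 the MiaPaca2 libraries held 214, 217 and 207 CPM under trametinib and 261, 291 and 271 CPM in DMSO. PES1 changed by −0.25 ± 0.04 (edgeR adjusted p = 8.25e-06) in KP4 and −0.37 ± 0.04 (edgeR adjusted p = 1.6e-08) in MiaPaca2, and WDR12 by −0.35 and −0.77.

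RRS1, which helps to place the 5S particle in the large subunit (ENSG00000179041, chromosome 8, 66429028 to 66430733), had the lowest fold change of KP4. It had 39.5, 38.4 and 39.8 CPM in KP4 trametinib, against 64.4, 60.8 and 65.6 CPM in KP4 DMSO. In MiaPaca2 RRS1 had 33.5, 32.7 and 29.9 CPM under trametinib and 49.7, 62.2 and 56.9 CPM in DMSO. The groups did not overlap, and the change was −0.70 ± 0.07 (edgeR adjusted p = 2.95e-09) in KP4 and −0.81 ± 0.07 (edgeR adjusted p = 3.06e-10) in MiaPaca2. RRS1 shares 11.4% of its exon bases with the same-strand AC009879.2, which held 0 counts. MRTO4, known from its yeast counterpart to act in assembly of the ribosomal stalk (ENSG00000053372, chromosome 1, 19251539 to 19260128), had 89.8, 86.1 and 91.5 CPM in KP4 trametinib, against 126, 124 and 125 CPM in KP4 DMSO. MiaPaca2 libraries held 73.3, 68.0 and 69.5 CPM of MRTO4 under trametinib and 133, 136 and 128 CPM in DMSO. It changed by −0.49 ± 0.05 (edgeR adjusted p = 1.31e-09) in KP4 and −0.91 ± 0.05 (edgeR adjusted p = 4.54e-15) in MiaPaca2. RRP1B, a nucleolar processing factor (ENSG00000160208, chromosome 21, 43659548 to 43696079), had 182, 185 and 191 CPM in KP4 trametinib, against 246, 253 and 256 CPM in KP4 DMSO. In MiaPaca2 RRP1B had 191, 193 and 192 CPM under trametinib and 331, 334 and 334 CPM in DMSO. The changes were −0.43 ± 0.04 (edgeR adjusted p = 2.51e-10) in KP4 and −0.79 ± 0.04 (edgeR adjusted p = 4.65e-16) in MiaPaca2.

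Among the other large-subunit genes, the nucleolar GTPase GNL3 fell by 0.25 in KP4 and 0.61 in MiaPaca2, NIP7 by 0.42 and 0.76, and NOP16 by 0.21 and 0.48. NIP7 shares 20.2% of its exon bases with the antisense gene COG8. NOP2, a cytosine methyltransferase of the large-subunit RNA (ENSG00000111641, chromosome 12, 6556863 to 6568691), had 15.9, 14.8 and 14.9 CPM in KP4 trametinib, against 19.4, 20.2 and 19.5 CPM in KP4 DMSO. In MiaPaca2 NOP2 had 12.5, 11.7 and 12.6 CPM under trametinib and 15.6, 18.1 and 15.9 CPM in DMSO. It changed by −0.37 ± 0.08 (edgeR adjusted p = 0.000469) in KP4 and −0.43 ± 0.09 (edgeR adjusted p = 0.000221) in MiaPaca2. WDR74, a factor of nucleolar large-subunit maturation (ENSG00000133316, chromosome 11, 62832342 to 62841809), had 45.9, 47.7 and 48.9 CPM in KP4 trametinib, against 63.1, 63.8 and 62.5 CPM in KP4 DMSO. WDR74 levels in MiaPaca2 were 47.9, 45.3 and 43.9 CPM under trametinib and 57.0, 66.8 and 72.8 CPM in DMSO. It changed by −0.41 ± 0.07 (edgeR adjusted p = 1.24e-05) in KP4 and −0.52 ± 0.07 (edgeR adjusted p = 3.26e-07) in MiaPaca2. WDR74 shares 12.2% of its exon bases with the antisense AP001160.1, which held 116 counts over all 12 libraries, against 16650 for WDR74. PPAN, the least abundant of the 40, was not called in KP4, at −0.22 ± 0.14 (edgeR adjusted p = 0.181), where its libraries overlapped, and fell in MiaPaca2, at −0.48 ± 0.15 (edgeR adjusted p = 0.00561). Its KP4 change became −0.37 and was called (adjusted p = 0.0414) without KP4 trametinib replicate 1.

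NCL, the histone- and RNA-binding protein nucleolin, and NPM1, the nucleolar chaperone nucleophosmin, gave the highest levels of the 40 genes. NCL averaged 1817 ± 31.6 CPM in KP4 trametinib and 2044 ± 24.1 CPM in KP4 DMSO, and 1686 ± 28.1 CPM in MiaPaca2 trametinib and 2562 ± 97.2 CPM in MiaPaca2 DMSO (SD, n = 3 each). It fell by 0.17 ± 0.03 (edgeR adjusted p = 5.3e-05) on the log2 scale in KP4 and by 0.60 ± 0.03 (edgeR adjusted p = 4.11e-15) in MiaPaca2. NPM1 averaged 635 ± 16.6 CPM in KP4 trametinib and 714 ± 1.04 CPM in KP4 DMSO, and 488 ± 6.77 CPM in MiaPaca2 trametinib and 803 ± 64.5 CPM in MiaPaca2 DMSO. It fell by 0.17 ± 0.04 (edgeR adjusted p = 0.00149) in KP4 and by 0.72 ± 0.04 (edgeR adjusted p = 5.8e-14) in MiaPaca2. Counts on the 45 pseudogenes named after NPM1 equalled 0.996% of its own.

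**Figure D4:**
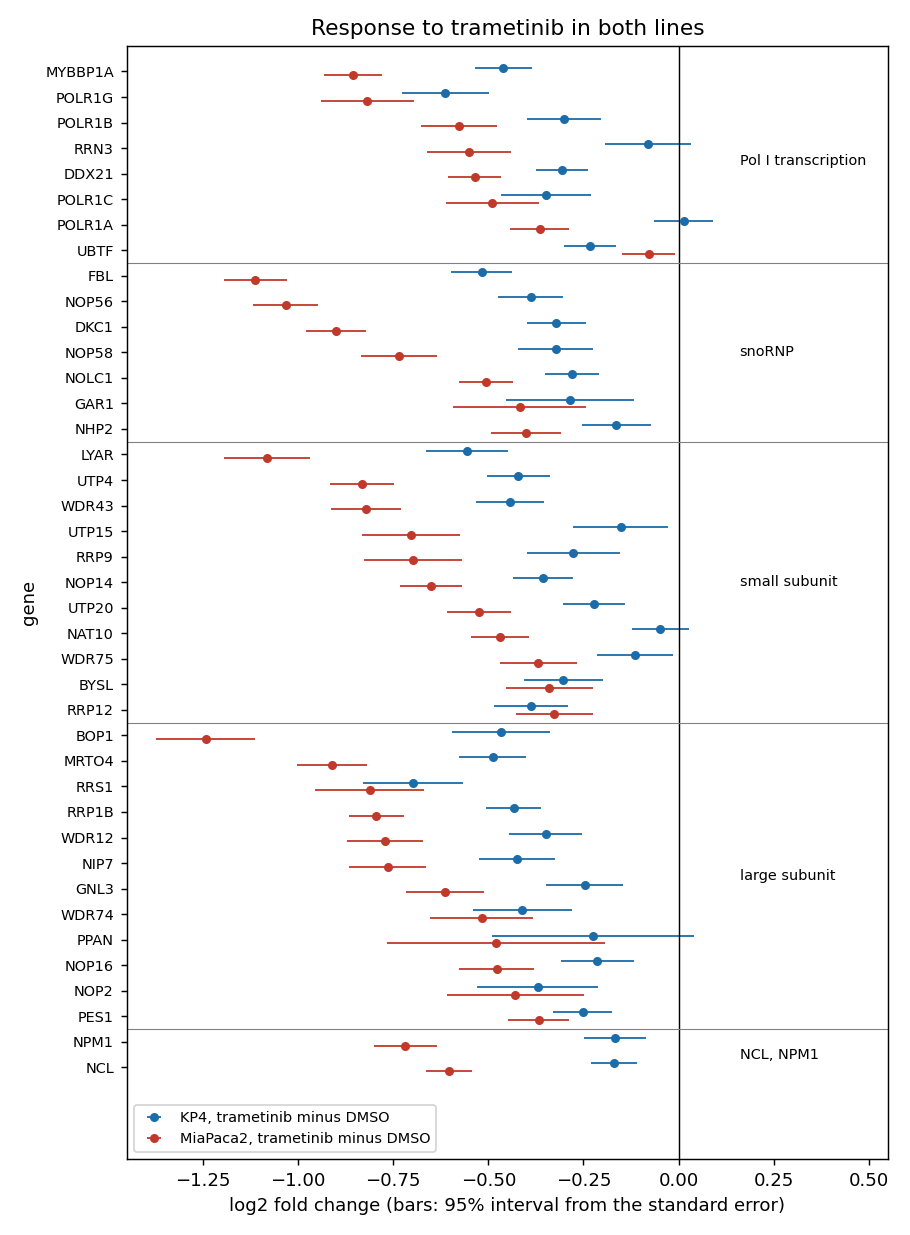
Log2 fold change, trametinib minus DMSO, of each of the 40 genes in KP4 (blue) and MiaPaca2 (red), grouped by role. Points are edgeR estimates and bars are approximate 95% intervals from the standard error. There were 3 libraries per group, with a spread pooled over all 12 libraries. MiaPaca2 points lie between −1.24 and −0.08 and KP4 points between −0.70 and 0.01, and only UBTF and RRP12 have the MiaPaca2 point to the right of the KP4 point.

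Whether the lines differed in response was tested directly, as the KP4 change minus the MiaPaca2 change. For 29 of the 40 genes the difference was called higher, that is, the gene fell less or did not fall in KP4, and for 1 it was called lower, with 10 not called and a median of 0.35. Over all tested genes 16% were called higher and 19.7% lower, with a median of −0.05. The largest differences were those of BOP1, at 0.78 ± 0.09 (edgeR adjusted p = 3.03e-06), NOP56, at 0.64 ± 0.06 (edgeR adjusted p = 6.07e-09), and FBL, at 0.59 ± 0.06 (edgeR adjusted p = 1.27e-08). The snoRNP genes gave 6 of 7 calls higher, small-subunit genes 9 of 11, large-subunit genes 7 of 12, Pol I genes 5 of 8, and NCL and NPM1 both. UBTF was the gene called lower, at −0.15 ± 0.05 (edgeR adjusted p = 0.0171). Its call did not hold with RLE scaling (−0.11, adjusted p = 0.102), with no filter on low counts (0.0743) or in DESeq2 (0.0798), nor without KP4 DMSO replicate 2 (0.0531), KP4 trametinib replicate 1 (0.188) or KP4 trametinib replicate 2 (0.0653). The 4 next lowest differences were not called: RRP12 at −0.06 ± 0.07, BYSL at 0.04 ± 0.08, NOP2 at 0.06 ± 0.12 and WDR74 at 0.11 ± 0.10. For RRP12 the approximate 95% interval ran from −0.20 to 0.08 and for BYSL from −0.12 to 0.19, so larger differences between the lines in these genes lay outside it. POLR1G, at 0.20 ± 0.09 (edgeR adjusted p = 0.0649), missed the threshold and passed it with RLE scaling (0.0229) and in DESeq2 (0.0239), and without KP4 trametinib replicate 1 (0.0352), KP4 DMSO replicate 3 (0.0466), MiaPaca2 trametinib replicate 1 (0.0293) or MiaPaca2 DMSO replicate 1 (0.00898). WDR74's difference was called without MiaPaca2 DMSO replicate 1 (adjusted p = 0.0444), and that of PES1, not called at 0.11 ± 0.06 (edgeR adjusted p = 0.122), without that library (0.017) or KP4 trametinib replicate 1 (0.0226), with RLE scaling (0.0291) and in DESeq2 (0.0279).

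The lines also differed in DMSO and under the drug. In DMSO, 23 of the 40 genes were lower in KP4 than in MiaPaca2, 9 were higher and 8 were not called, with a median of −0.16; 31.2% of tested genes were called lower and 32% higher, with a median of 0.02. Under trametinib, 26 were higher in KP4 than in MiaPaca2, 0 were lower and 14 were not called, with a median of 0.19; 26.5% of tested genes were called higher and 29.8% lower, with a median of −0.01. At an unadjusted p under 0.05 edgeR gave 0 lower under trametinib, as did DESeq2 and limma-voom after adjustment. These comparisons share no library. For 13 genes KP4 was called lower in DMSO and higher under trametinib: MYBBP1A, FBL, NOP58, DKC1, UTP4, UTP15, NOP14, NAT10, LYAR, BOP1, WDR12, NCL and NPM1. Of all tested genes 2.23% did so. Within these 13, NOP58's call in DMSO was lost without MiaPaca2 DMSO replicate 1 (adjusted p = 0.0828) and UTP15's under trametinib without MiaPaca2 trametinib replicate 1 (0.0738). BOP1's call under trametinib was lost without KP4 trametinib replicate 3 (0.0741), MiaPaca2 trametinib replicate 1 (0.0953) or MiaPaca2 trametinib replicate 3 (0.105). Another 10 were lower in DMSO and not called under trametinib (9.22% of tested genes), 9 were higher in both (18.6%), 4 were higher under trametinib and not called in DMSO (5.7%), and 4 were called in neither (23.5%). Without KP4 trametinib replicate 1, POLR1B (adjusted p = 0.0393) and NOP16 (0.0236) were also called higher under trametinib. The same held with RLE scaling (0.043 and 0.0408), library size only (0.0358 and 0.0285) and DESeq2 (0.0439 and 0.0414). With only the libraries compared, POLR1B (0.0243), NOP16 (0.0228) and WDR43 (0.0408) were called higher. In DMSO, RRP9 (adjusted p = 0.0124) and WDR74 (0.0261) were called lower without MiaPaca2 DMSO replicate 1, GAR1 (0.0321) without replicate 2 and MRTO4 (0.0478) without replicate 3 of that group. MRTO4 (0.0313 and 0.0293) and POLR1C (0.04 and 0.0447) were also called lower in DMSO with RLE scaling and in DESeq2. The summed levels of the 40 genes gave the same order: KP4 DMSO stood at 8914.8 and MiaPaca2 DMSO at 10084.5 CPM, and KP4 trametinib at 7390.8 and MiaPaca2 trametinib at 6478.7 CPM.

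In DMSO the 4 lowest differences, KP4 minus MiaPaca2, were those of NOP56, at −0.68 ± 0.04 (edgeR adjusted p = 3.29e-13), BOP1, at −0.59 ± 0.06 (edgeR adjusted p = 1.75e-07), RRN3, at −0.57 ± 0.06 (edgeR adjusted p = 1.7e-09), and RRP1B, at −0.41 ± 0.04 (edgeR adjusted p = 3.03e-10). These genes of the snoRNP scaffold, large-subunit assembly and Pol I initiation were lower in every KP4 DMSO library than in any MiaPaca2 DMSO library. The 4 highest were UBTF, at 0.38 ± 0.04 (edgeR adjusted p = 5.59e-10), RRP12, at 0.35 ± 0.05 (edgeR adjusted p = 1.07e-06), BYSL, at 0.33 ± 0.05 (edgeR adjusted p = 8.3e-06), and PES1, at 0.29 ± 0.04 (edgeR adjusted p = 5.77e-07). Among these, UBTF, RRP12, BYSL and PES1 were each higher in all 3 KP4 DMSO libraries than in all 3 MiaPaca2 DMSO libraries. By that rule 5181 of all 16133 tested genes were lower in KP4 DMSO and 5484 were higher. Of the 40 genes, 25 were lower and 8 higher. The genes named here were chosen for their differences in these same libraries, so their lack of overlap adds no separate result. Under trametinib the same subtraction gave −0.03 ± 0.04 for NOP56 and −0.10 ± 0.06 for RRN3, neither called, and 0.18 ± 0.07 for BOP1, called higher in KP4. Of the 9 calls higher in DMSO, those of NOLC1, UTP20 and RRS1 were lost under several settings. Leaving out any 1 of the KP4 DMSO libraries ended the calls of NOLC1 (adjusted p = 0.0652 to 0.0737) and UTP20 (0.0699 to 0.0995), as did leaving out MiaPaca2 DMSO replicate 3 (0.0964 for NOLC1 and 0.188 for UTP20). NOLC1's was also lost without MiaPaca2 DMSO replicate 1 (adjusted p = 0.0523), and RRS1's without that library (0.17), KP4 DMSO replicate 1 (0.0569) or KP4 DMSO replicate 3 (0.0814).

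**Figure D5:**
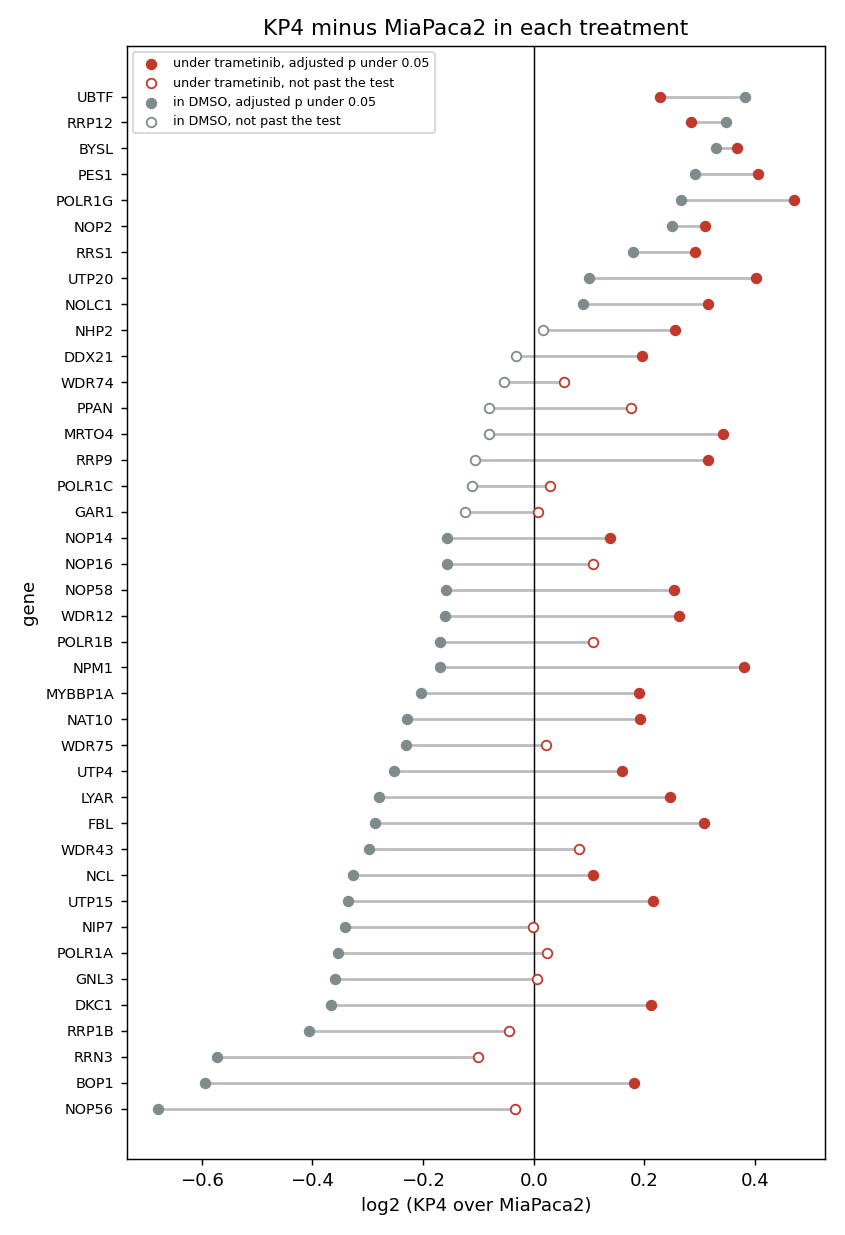
Log2 difference between the lines, KP4 minus MiaPaca2, of each of the 40 genes under trametinib (red) and in DMSO (grey), ordered by the value in DMSO. Filled points passed the edgeR test and open points did not, and a grey line joins the points of a gene. The values ran from −0.10 to 0.47 under trametinib and from −0.68 to 0.38 in DMSO.

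The rest of the pathway was read from a list of 152 further genes. In KP4, 117 of them fell, 1 rose and 34 were not called (median −0.25), and in MiaPaca2, 129 fell, 2 rose and 21 were not called (median −0.45). Of all tested genes, 24.1% were called lower and 23.9% higher in KP4, and 29.7% lower and 34.4% higher in MiaPaca2. By list in KP4, 10 of 15 other Pol I genes, 12 of 12 other snoRNP genes, 31 of 41 other small-subunit genes, 38 of 43 other large-subunit genes, 14 of 20 genes of the exosome and ribosomal RNA modification and 12 of 21 Pol III genes fell. The counts in MiaPaca2, in the same order of lists, were 11 of 15, 10 of 12, 36 of 41, 41 of 43, 16 of 20 and 15 of 21. The difference between the lines was called higher for 68 of the 152 genes and lower for 4, against 16% higher and 19.7% lower of all tested genes. EXOSC4, a core subunit of the RNA exosome, was lowest in both lines: it averaged 7.96 ± 0.243 CPM in KP4 trametinib and 22.2 ± 1.45 CPM in KP4 DMSO, and 10.8 ± 1.17 CPM in MiaPaca2 trametinib and 38.1 ± 6.71 CPM in MiaPaca2 DMSO. Its changes were −1.48 ± 0.12 (edgeR adjusted p = 6.85e-10) in KP4 and −1.83 ± 0.11 (edgeR adjusted p = 1.16e-12) in MiaPaca2. Next lowest in MiaPaca2 was EBNA1BP2, a large-subunit assembly factor, which averaged 132 ± 2.33 CPM in MiaPaca2 trametinib and 341 ± 20.1 CPM in MiaPaca2 DMSO, a change of −1.37 ± 0.04 (edgeR adjusted p = 1.23e-19). Next lowest in KP4 was the helicase gene DDX47 at −0.77 ± 0.44 (edgeR adjusted p = 0.156), not called, at a mean level under 1 CPM in both groups. The highest values belonged to POLR3GL, a Pol III subunit, which rose by 0.55 ± 0.14 (edgeR adjusted p = 0.00134) in KP4 and 0.60 ± 0.13 (edgeR adjusted p = 0.000298) in MiaPaca2. Next came NOP9 in KP4, at 0.11 ± 0.06 (edgeR adjusted p = 0.13) and not called, and in MiaPaca2 the Pol III initiation factor BRF2, which rose by 0.26 ± 0.10 (edgeR adjusted p = 0.0195).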

How the data were processed

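The authors deposited 1 table of raw read counts per gene, whole numbers with no normalization, with 0 columns that matched no sample and 0 lines that named no gene. The submitters' processing notes name STAR, DESeq2 and GRCh38 (hg38). The counter, annotation, strand setting and treatment of multi-mapped reads: not given in the sources used here. GENCODE 29 held all 58735 identifiers and gave positions and exon lengths. Sequences are RefSeq's on GRCh38.p14.

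The members and gene lists were chosen with earlier results of these data known. Counts were filtered with filterByExpr, scaled with TMM and tested with edgeR 4.0.16 (R 4.3.3) by quasi-likelihood over all 12 libraries, with 1 mean per group and robust shrinkage, and Benjamini-Hochberg adjustment over 16133 genes. The biological coefficient of variation was 5.47%. Errors on log2 fold changes are standard errors, and 95% intervals are approximate, from a normal distribution around the estimate. They can be narrower than the edgeR test implies. The interval of PES1's response difference, 0.00296 to 0.227, left out 0 at an unadjusted edgeR p of 0.0552. Errors and intervals rest on a spread per gene pooled over the 4 groups, so they do not show the wider spread of MiaPaca2 DMSO. Median coefficients of variation of the 40 genes within a group were 2.33% in KP4 trametinib, 1.92% in KP4 DMSO, 3.01% in MiaPaca2 trametinib and 5.16% in MiaPaca2 DMSO. All genes of the list may be named. Every library is given for the 6 lowest and 3 highest fold changes in each line, the 5 lowest and 3 highest response differences and the 4 highest and 4 lowest line differences in DMSO, and of other pathway genes the 2 lowest and 2 highest in each line are named. The alternatives were RLE scaling, library size only, no filter, DESeq2 1.42.0, limma-voom (limma 3.58.1), only the libraries compared, a replicate block, each library left out and, added after seeing the data, edgeR's older quasi-likelihood estimate. The fit was run on simulated counts with the same spread for every gene and group, which does not cover the wider spread of MiaPaca2 DMSO. A chi-square test over genes with at least 10 counts found no pair of replicates that agreed within sampling noise.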

Additional observations from a re-analysis of the deposited data

Results flagged for a closer look

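For 30 of the 40 genes the responses of the lines differed by the edgeR test of the difference, KP4 minus MiaPaca2 on the log2 scale. Of all tested genes 16% were called higher by this test and 19.7% lower. Among Pol I genes the difference was 0.38 for POLR1A, 0.28 for POLR1B, 0.47 for RRN3, 0.39 for MYBBP1A, 0.23 for DDX21 and −0.15 for UBTF, which alone was below 0. UBTF's call was lost with RLE scaling, with no filter on low counts and in DESeq2. The snoRNP genes gave 0.59 for FBL, 0.64 for NOP56, 0.41 for NOP58, 0.58 for DKC1, 0.24 for NHP2 and 0.23 for NOLC1. Among small-subunit genes it was 0.41 for UTP4, 0.55 for UTP15, 0.30 for UTP20, 0.38 for WDR43, 0.25 for WDR75, 0.42 for RRP9, 0.29 for NOP14, 0.42 for NAT10 and 0.53 for LYAR. Large-subunit genes gave 0.78 for BOP1, 0.42 for WDR12, 0.26 for NOP16, 0.36 for RRP1B, 0.37 for GNL3, 0.34 for NIP7 and 0.42 for MRTO4. NCL and NPM1 gave 0.43 and 0.55.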

How the results depend on the processing

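No called value changed sign under the alternatives run. Leaving out each library, the members called lower were 33 to 35 in KP4 and 39 to 40 in MiaPaca2, the response differences called higher were 29 to 32, the members lower and higher in KP4 DMSO against MiaPaca2 DMSO were 23 to 24 and 6 to 9, and those higher under trametinib 24 to 28. The number of response differences called lower, which was 1 (UBTF), was 0 under RLE scaling, with no filter on low counts and in DESeq2, and 0 to 1 with each library left out; the cause was not tested. Without MiaPaca2 DMSO replicate 2, the counts were 39 lower in MiaPaca2, 29 response differences higher and 24 lower and 9 higher between the lines in DMSO. Scalings moved the median of all genes by under 0.1 (log2). Same-numbered libraries of different groups deviated together with correlations of −0.0148 to 0.0465, and differently numbered ones with −0.0301 to 0.0395. Between KP4 DMSO and MiaPaca2 DMSO, same-numbered libraries gave 0.0318 to 0.0465 and differently numbered ones −0.0291 to −0.00776. These values do not settle whether the numbers pair samples. With a replicate block the calls were 34 lower in KP4, 39 lower in MiaPaca2 and 29 response differences higher, as without it. In DMSO the calls of NOLC1 (adjusted p up to 0.233), UTP20 (0.235) and RRS1 (0.170) were lost under some settings. PPAN had the widest standard error of the 40 genes, 0.14 in KP4 and 0.15 in MiaPaca2 (log2).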

Other observations

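Within 8 of the 40 genes lie 26 annotated small nucleolar or Cajal-body RNA genes, of the kinds that guide the modifications made by snoRNP proteins. The 8 genes are NOP56, NOP58, DKC1, WDR43, PPAN, GNL3, NCL and POLR1C. NOP56, NOP58 and DKC1 are themselves snoRNP proteins. GNL3 and NOP56 carry SNORD69 and SNORA51, with 56 and 7 counts over all 12 libraries. The libraries were poly(A)-selected and gave no measure of these small RNAs: the highest count of any of the 26 over all 12 libraries was 56. The log2 fold changes of the 8 hosts were −0.39 in KP4 and −1.03 in MiaPaca2 for NOP56, −0.32 and −0.73 for NOP58, −0.32 and −0.90 for DKC1, −0.44 and −0.82 for WDR43, −0.22 (not called) and −0.48 for PPAN, −0.25 and −0.61 for GNL3, −0.17 and −0.60 for NCL and −0.35 and −0.49 for POLR1C.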
